A study of Chlorocebus sabaeus with 10 samples.

Results

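Amino acid catabolism and the methionine cycle were examined in vervet monkey liver through 44 enzyme genes listed by symbol, compared between a high fructose (HFr) diet and chow. The transcript table held a row for 41 of these genes, each with a single transcript, among 28078 transcripts of 23352 gene symbols. QPRT, CBS and PRODH were not analysed here. A filter on low counts kept 40 of the 41, and DBT, the core acyltransferase of the branched-chain keto acid dehydrogenase, was not tested because it had only 0 to 8 counts per animal. The samples were flash frozen liver biopsies of 10 female Chlorocebus sabaeus, an Old World monkey, that had all been kept on chow and were then fed either HFr (n = 5) or chow (n = 5) for 6 weeks. The animals had been assigned to the diets so as to balance age and body weight. The mean age that the study reports was nevertheless higher on HFr, with no significant difference between the groups. The labels give no age, allele or further treatment. Polyadenylated RNA of each animal was sequenced as 1 library, so each replicate number below is an animal.

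Liver is the main site where surplus amino acids are broken down. Their nitrogen is passed to urea, and their carbon skeletons enter gluconeogenesis, ketone body formation or the citric acid cycle. Most amino acids have a dedicated chain of enzymes in hepatocytes, whereas the branched-chain amino acids lose their amino group largely outside the liver and reach it as keto acids. The methionine cycle makes S-adenosylmethionine, the methyl donor of most methylation reactions, and regenerates methionine from homocysteine or diverts it to cysteine.

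Levels are given as normalized counts, which are counts per 1e+06 of a library size corrected by TMM (trimmed mean of M values). They are not corrected for transcript length, so they are compared between animals and not between genes. Sums over marker lists add such levels, so the genes with the highest values weigh most in them. Total counts per animal ranged from 2977282 to 4992505, of which 864571 to 2657103 lay on nuclear transcripts, and a single count was worth 0.183 to 0.505 normalized counts. Mitochondrial transcripts took 41.8% to 67.8% of the counts on HFr and 34.8% to 73.6% on chow. Hepatocyte markers were present in every library, with a summed level of 7 genes between 46000 and 71500 on HFr and between 36800 and 77400 on chow. ALB was the largest part of that sum, with means of 29950 on HFr and 33890 on chow. The summed kidney and skeletal muscle markers reached at most 0.914 and 1.83 normalized counts. The summed levels of macrophage, lymphocyte, blood cell, cholangiocyte, stellate cell and endothelial markers overlapped between the diets. HBB, DCN and STAB1 were the largest parts of the blood cell, stellate cell and endothelial sums. The stellate cell and fibroblast sum was 210 to 378 on HFr and 166 to 735 on chow, with 1 of 5 tested genes higher on HFr, and the endothelial sum was 279 to 413 and 222 to 391, with 4 of 6 higher. Within these lists, ACTA2, a smooth muscle and activated stellate cell actin, was lower on HFr with a log2 fold change of -1.57 (edgeR p = 0.00646, exact permutation p = 0.0397), and KDR, an endothelial receptor, was at 0.57 (edgeR p = 0.0109, exact permutation p = 0.0317). ACTA2 rests on 6 to 75 counts per animal, and the Benjamini-Hochberg adjusted edgeR p was 0.9996 for both genes. All marker lists used here held 46 tested entries, with PCK1 in more than 1 list. An unadjusted edgeR p under 0.05 was found for 4.35% of these entries, against 4.29% of all tested transcripts. These calls therefore give no result about the cell types. The part of the marker genes in the values below was not tested.

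None of the tested enzymes of amino acid breakdown differed between the diets after adjustment over all transcripts. The fitted level was higher on HFr for 26 of the 40 tested genes and lower for 14, with a median log2 fold change of 0.08 and a range from -0.63 to 0.72. This lean depended on single animals of both diets. The median was -0.03 with 47.5% of the genes higher without HFr animal 2, and 0.01 with 52.5% higher without HFr animal 4. Without chow animal 5 it was 0.04 with 52.5% higher. In the other fits that left out an animal, 57.5% to 65.0% were higher. The median over all 7948 tested transcripts was 0.00, and 49.8% of them were higher. An unadjusted p under 0.05 in edgeR's quasi-likelihood test was found for 3 of the 40 genes, or 7.5%, against 4.29% of all tested transcripts. MCCC2 and BCKDHB were lower on HFr, which is 5.0% of the genes against 2.23% of all transcripts, and UROC1 was higher, which is 2.5% against 2.06%. With 3 genes called, these shares give no result about the list. No gene passed the Benjamini-Hochberg threshold of 0.05 in edgeR, with adjusted p-values of 0.9996 for all 3, and none did in DESeq2, where 4 had an unadjusted p under 0.05. Over all 7948 transcripts, edgeR gave 341 unadjusted calls and 0 adjusted calls, and DESeq2 gave 330 and 2. None of the 40 genes had diets that did not overlap in normalized count, a pattern held by 0.541% of all tested transcripts. In whole tissue, fewer cells of a type and less RNA per cell cannot be told apart, for these and all other values below.

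**Figure D1:**
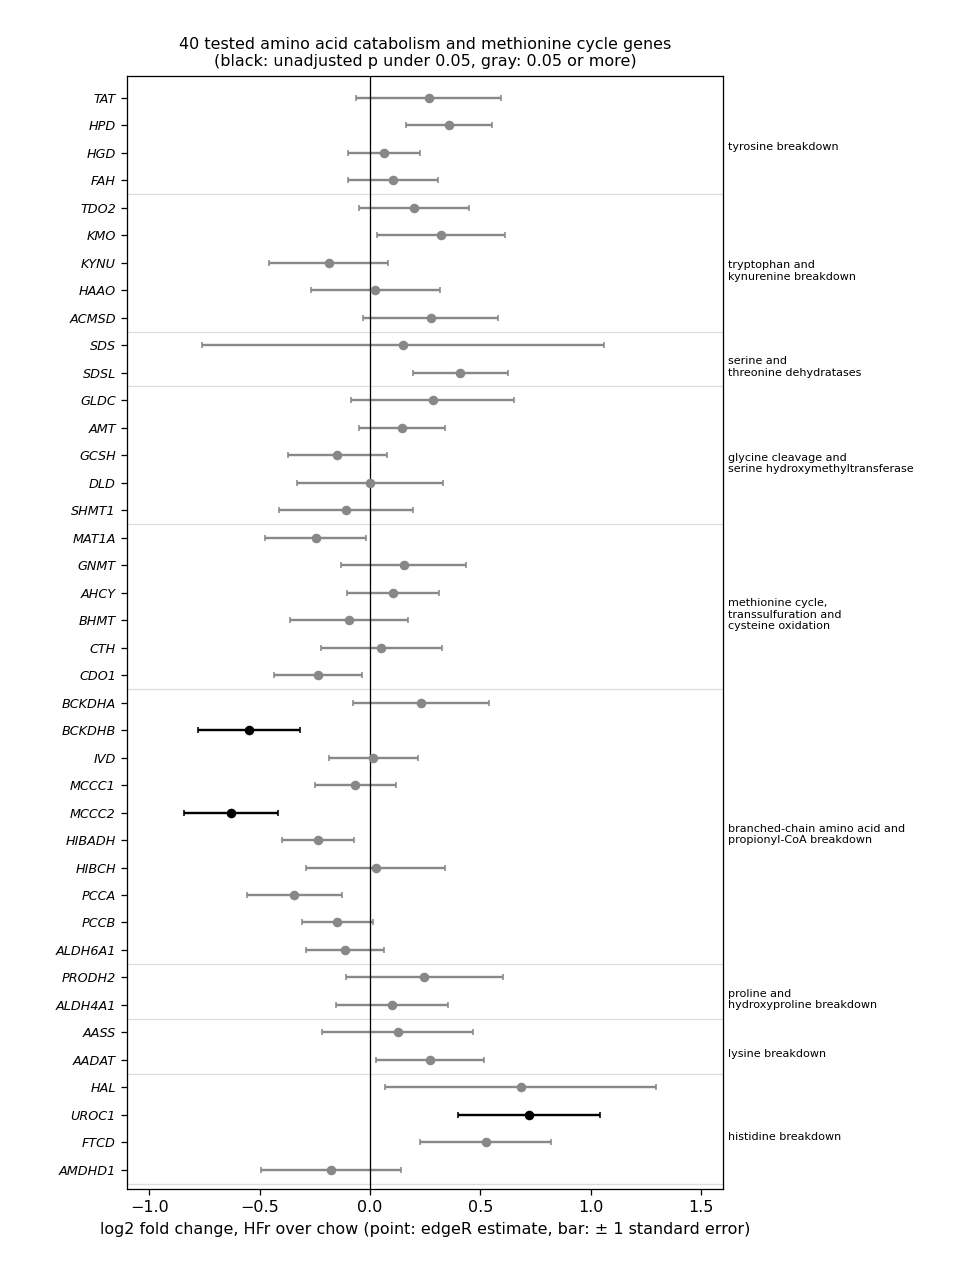
Fitted log2 fold change, HFr over chow, of the 40 tested genes in pathway order, with points at the edgeR estimate and bars of 1 standard error. Black marks the 3 genes with an unadjusted p under 0.05, MCCC2 and BCKDHB below 0 and UROC1 above it, and the other 37 are gray.

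Among the genes of branched-chain amino acid breakdown, subunits of 2 enzyme complexes were lower on HFr at an unadjusted p under 0.05, and their partner subunits did not reach that p. Of the 10 tested genes, 7 were lower and 3 higher on HFr, with a median log2 fold change of -0.13. An unadjusted p under 0.05 was found for 2 of the lower ones. That is 20% of the group, against 2.23% of all tested transcripts. With 2 genes called, this share gives no result about the group. The median was -0.22 without HFr animal 5, and 0.00879 with 5 of the 10 higher without the 4 libraries with the fewest nuclear counts. MCCC2 encodes the carboxyltransferase subunit of 3-methylcrotonyl-CoA carboxylase, a mitochondrial enzyme of leucine breakdown, and lies on chromosome 4 of ChlSab1.1 from 65944840 to 66013663 on the plus strand. Its normalized counts were 30.5, 21.3, 39.9, 33.3 and 46.3 in HFr animals 1 to 5, and 39.8, 50.6, 62.4, 61.7 and 51.5 in chow animals 1 to 5. All 5 HFr animals lay under the chow mean, and the diets overlapped only because HFr animals 3 and 5 lay above chow animal 1. The means were 34.3 ± 9.48 on HFr and 53.2 ± 9.30 on chow (SD, n = 5 each). The log2 fold change was -0.63 ± 0.21 (SE), with an edgeR p of 0.0100 and an exact permutation p of 0.0238, two-sided. In each of the 10 fits that left out an animal, its p stayed under 0.05. It did not in the fit with no TMM scaling, where the log2 fold change was -0.65 with an edgeR p of 0.0737.

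BCKDHB encodes the E1 beta subunit of the branched-chain keto acid dehydrogenase, the committing step in the breakdown of leucine, isoleucine and valine. It lies on chromosome 13 from 4845457 to 5087745 on the plus strand, and its values rest on only 12 to 48 counts per animal. The normalized counts were 5.28, 6.95, 4.84, 6.22 and 5.94 in the HFr animals, and 5.94, 10.5, 8.62, 10.6 and 7.81 in the chow animals. The HFr values were close together, and chow animal 1 was the single chow animal within their range. Means were 5.85 ± 0.823 on HFr and 8.70 ± 1.96 on chow (SD, n = 5 each), and the log2 fold change was -0.55 ± 0.23 (SE), with an edgeR p of 0.0324 and an exact permutation p of 0.0238. This call was less stable than that of MCCC2. Its edgeR p was 0.0592 without HFr animal 1, 0.0629 without HFr animal 3, 0.0516 without HFr animal 5, 0.0913 without chow animal 2, 0.0509 without chow animal 3 and 0.0667 without chow animal 4, while the log2 fold change stayed between -0.67 and -0.46 in all 10 such fits. Leaving out the 4 libraries with the fewest nuclear counts, a choice made after the data were seen, ended the call for both genes, with log2 fold changes of -0.59 for MCCC2 and -0.39 for BCKDHB and edgeR p-values of 0.0856 and 0.229.

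The partner subunits of these enzymes gave other values. MCCC1, the biotin-carrying subunit of 3-methylcrotonyl-CoA carboxylase, had a log2 fold change of -0.07 ± 0.18 (SE), with normalized counts from 15.8 to 27.8 on HFr and from 19.8 to 27.6 on chow. BCKDHA, the E1 alpha subunit, was at 0.23 ± 0.31 (SE), with 8.88 to 29.8 on HFr and a range on chow that overlapped it. Neither differed between the diets beyond its spread (edgeR p = 0.724 and 0.464, exact permutation p = 0.690 and 0.548). The difference between subunits was examined as a ratio within each animal, for 4 gene pairs chosen after their values were seen. The ratio of BCKDHB to BCKDHA was 0.275, 0.233, 0.545, 0.219 and 0.312 in the HFr animals and 0.333, 0.350, 0.588, 0.700 and 0.654 in the chow animals. On the log2 scale it was lower on HFr by 0.74, with means of -1.74 and -0.999 (exact permutation p = 0.0556, 0.198 after Benjamini-Hochberg adjustment over the 4 pairs). For MCCC2 to MCCC1, the HFr ratios ran from 0.960 to 2.92 and the chow ratios from 1.85 to 3.15, a log2 difference of -0.57 (exact permutation p = 0.159, adjusted 0.198). Neither ratio passed the threshold, so it was not shown that the paired subunits differed from each other in their response to the diets.

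**Figure D2:**
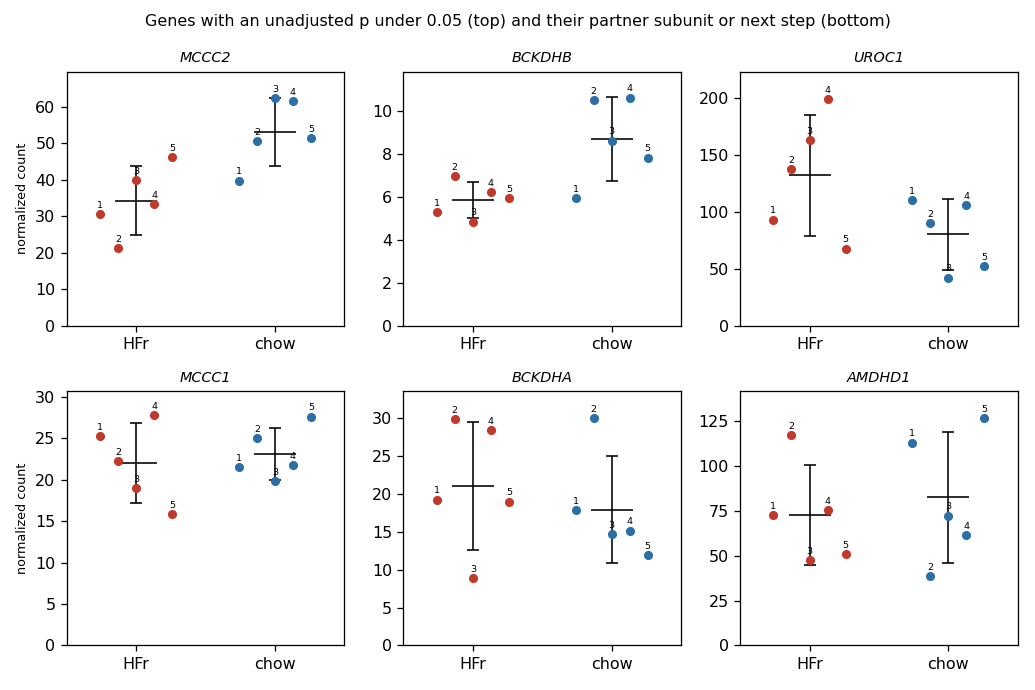
Normalized counts of MCCC2, BCKDHB and UROC1 (top) and of MCCC1, BCKDHA and AMDHD1, the partner subunit or next enzyme of each (bottom), in 5 HFr (red) and 5 chow (blue) animals. Numbers are the replicate numbers of the animals, and lines show the mean ± SD of a diet. The HFr animals sit lower for MCCC2 and BCKDHB with some overlap, and the diets overlap across most of their range in the bottom row.

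The other genes of the group had no unadjusted edgeR p under 0.05. PCCA, the biotin-carrying alpha subunit of propionyl-CoA carboxylase, had normalized counts of 71.6, 55.4, 76.7, 51.5 and 112 in the HFr animals and 76.3, 112, 89.3, 88.9 and 98.8 in the chow animals. HFr animal 5 stood with the highest chow animal, and 3 of the other HFr animals lay below all chow values. The means were 73.4 ± 24.0 and 93.2 ± 13.4 (SD, n = 5 each), with a log2 fold change of -0.34 ± 0.22 (SE; edgeR p = 0.136, exact permutation p = 0.151). Without HFr animal 5 the log2 fold change was -0.55 and the edgeR p 0.0134. PCCB, the beta subunit, was at -0.15 ± 0.16 (SE). HIBADH, an enzyme of valine breakdown, lay under the chow mean in all 5 HFr animals, with 64.8 ± 7.03 on HFr and 76.2 ± 11.7 on chow (SD, n = 5 each), but its log2 fold change of -0.24 had an edgeR p of 0.171. IVD, the isovaleryl-CoA dehydrogenase of leucine breakdown, had 158, 141, 149, 228 and 137 on HFr and 164, 191, 112, 183 and 154 on chow. Its means of 163 ± 37.5 and 161 ± 30.8 (SD, n = 5 each) were close, with a log2 fold change of 0.02 ± 0.20 (SE; edgeR p = 0.939, exact permutation p = 0.960). The valine enzymes HIBCH and ALDH6A1 were at 0.03 and -0.11. DBT had normalized counts of 0.222 to 1.88 on HFr and 0 to 1.53 on chow, too few to compare.

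Histidine breakdown had a median log2 fold change of 0.60 over 4 genes, of which 3 were higher and 1 lower on HFr. Without HFr animal 4 the median was 0.32, and without HFr animal 2 it was 0.38. Histidine is deaminated by HAL to urocanate, hydrated by UROC1, opened by AMDHD1 and passed by FTCD to the folate pool. UROC1, urocanate hydratase, lies on chromosome 22 from 54499487 to 54535862 on the plus strand. Its normalized counts were 93.1, 137, 163, 199 and 67.5 in the HFr animals and 110.4, 90.0, 42.2, 106 and 52.4 in the chow animals. HFr animals 2, 3 and 4 lay above all chow animals, whereas HFr animal 5 was lower than 3 of them. The means were 132 ± 52.7 on HFr and 80.1 ± 31.1 on chow (SD, n = 5 each), with a log2 fold change of 0.72 ± 0.32 (SE) and an edgeR p of 0.0423. On the normalized counts alone, the exact permutation p was 0.0952. The edgeR p rose to 0.0651 without HFr animal 2, 0.0924 without HFr animal 3, 0.129 without HFr animal 4, 0.0988 without chow animal 3 and 0.0985 without chow animal 5, with log2 fold changes from 0.52 to 0.89 over the 10 such fits. It was 0.126 without the 4 libraries with the fewest nuclear counts.

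The other histidine enzymes did not share this call. FTCD, formimidoyltransferase cyclodeaminase, had normalized counts of 162, 131, 201, 401 and 123 on HFr and 120.0, 151, 128, 179 and 131 on chow. HFr animal 4 alone carried most of its difference. The log2 fold change of 0.52 ± 0.30 (SE; edgeR p = 0.0988, exact permutation p = 0.262) was 0.11 without that animal (edgeR p = 0.584) and 0.66 without HFr animal 5 (edgeR p = 0.0435). HAL, histidine ammonia-lyase, was at 1.51, 10.1, 4.44, 2.89 and 3.36 on HFr and at 4.34, 0.657, 5.50, 0 and 2.30 on chow. These values rest on 0 to 45 counts, and the log2 fold change of 0.68 had a standard error of 0.61 (edgeR p = 0.284, exact permutation p = 0.349). AMDHD1, imidazolonepropionase, went the other way at -0.18 ± 0.32 (SE; edgeR p = 0.588, exact permutation p = 0.683). HAL and AMDHD1 are neighbours on chromosome 11, at 91347039 to 91363378 on the minus strand and 91319409 to 91341559 on the plus strand, and their annotated spans do not overlap. The within-animal ratio of UROC1 to AMDHD1 was 1.17 to 3.42 on HFr and 0.413 to 2.32 on chow, a log2 difference of 0.85 (exact permutation p = 0.159, adjusted 0.198).

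The fitted level was higher on HFr for all 4 tested genes of tyrosine breakdown, with a median log2 fold change of 0.19, but none had an unadjusted edgeR p under 0.05. Without HFr animal 2 the median was 0.0583, with 3 of the 4 higher. The chain starts with TAT, tyrosine aminotransferase, and continues through HPD, HGD and FAH to fumarate and acetoacetate. HPD, 4-hydroxyphenylpyruvate dioxygenase, had normalized counts of 586, 658, 598, 715 and 565 on HFr and 658, 406, 443, 525 and 407 on chow. All 5 HFr animals were above the chow mean, and chow animal 1 was the only chow animal among the HFr values. The means were 624 ± 61.2 and 488 ± 107 (SD, n = 5 each), with a log2 fold change of 0.36 ± 0.20 (SE; edgeR p = 0.0895, exact permutation p = 0.0556). An unadjusted p under 0.05 was reached for HPD in 3 alternatives. The p was 0.0405 in DESeq2 and 0.0219 in edgeR without chow animal 1. It was 0.0193 in an equal-variance test, the study's type of test, run here on the deposited normalized values. TAT was more variable, with 552, 916, 561, 191 and 335 on HFr and 470.3, 395, 439.6, 324 and 495 on chow. HFr animals 2 and 4 marked its highest and lowest values, 4.79-fold apart, and the log2 fold change of 0.27 ± 0.33 (SE; edgeR p = 0.431, exact permutation p = 0.571) changed sign to -0.05 without HFr animal 2. HGD and FAH, the homogentisate and fumarylacetoacetate enzymes, were at 0.06 and 0.10.

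In tryptophan and kynurenine breakdown, 4 of 5 tested genes were higher on HFr and 1 lower, none with an unadjusted edgeR p under 0.05, and the median was 0.20. Without HFr animal 2 the median was 0.0077, with 3 of the 5 higher. TDO2, tryptophan 2,3-dioxygenase, opens the pathway in hepatocytes. Its normalized counts were 254, 352, 186, 122 and 259.8 on HFr and 240.4, 177, 220.4, 179 and 205 on chow. As for TAT, HFr animal 2 was the highest of the 10 animals and HFr animal 4 the lowest. The means of 235 ± 86.5 and 204 ± 27.2 (SD, n = 5 each) gave a log2 fold change of 0.20 ± 0.25 (SE; edgeR p = 0.433, exact permutation p = 0.508). The later enzymes KMO, HAAO and ACMSD were at 0.32, 0.02 and 0.27, and KYNU, kynureninase, was at -0.19. Counts were low for KMO, at 9 to 55 per animal, and for ACMSD, at 13 to 94 per animal.

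SDS varied more between animals than any other of these enzymes. It encodes serine dehydratase, which turns serine into pyruvate and is known to be induced by fasting, glucagon and protein-rich feeding. Its normalized counts were 142, 427, 77.9, 14.0 and 4.16 in the HFr animals and 220.1, 165, 60.2, 8.59 and 143 in the chow animals. HFr animals 4 and 5 and chow animal 4 were far below the other 7, and the range over the 10 animals was 103-fold, with counts from 17 to 1902. Each diet held both low and high animals, and the log2 fold change of 0.15 had a standard error of 0.91 (edgeR p = 0.872, exact permutation p = 0.929). Within a diet, its SD on the scale of log2(normalized count + 1) was 2.22, which ranked 3 of the 7948 tested transcripts. The sign of its log2 fold change depended on the fit, which gave -0.61 in limma and -1.03 in edgeR without HFr animal 2. For 8 other genes known to respond to glucocorticoids or glucagon, the summed level was 5060, 3720, 3470, 1440 and 2060 on HFr and 2830, 2540, 3400, 3900 and 5540 on chow. HFr animals 4 and 5, low in SDS, were also the lowest in that sum, but chow animal 4 was not low in it. Chow animal 2 came next lowest in the sum, at 2540, but was not low in SDS, at 165. The sum consists mostly of PCK1, a gluconeogenic enzyme, and IGFBP1, a secreted binding protein of insulin-like growth factors. HFr animals 4 and 5 were the lowest of the 10 animals for IGFBP1 (203 and 261) and for PPARGC1A (8.22 and 8.705). PCK1 was also lowest in HFr animal 4, but HFr animal 3 lay below HFr animal 5. TSC22D3 and ZBTB16 were lowest in HFr animal 4 and G6PC in HFr animal 5. FKBP5 and PER1 did not share this order. FKBP5 was at 95.0 in HFr animal 5 and PER1 at 148 in HFr animal 4, each the second highest of the 10 animals. The part of these signals in the SDS values was not tested. SDSL, a homolog of SDS on the opposite strand of the same region of chromosome 11, ranged from 31.5 to 76.2 on HFr and from 34.9 to 43.8 on chow. Its log2 fold change was 0.41 ± 0.22 (SE; edgeR p = 0.0776, exact permutation p = 0.135), and 0.55 without HFr animal 5 with an edgeR p of 0.0130.

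**Figure D3:**
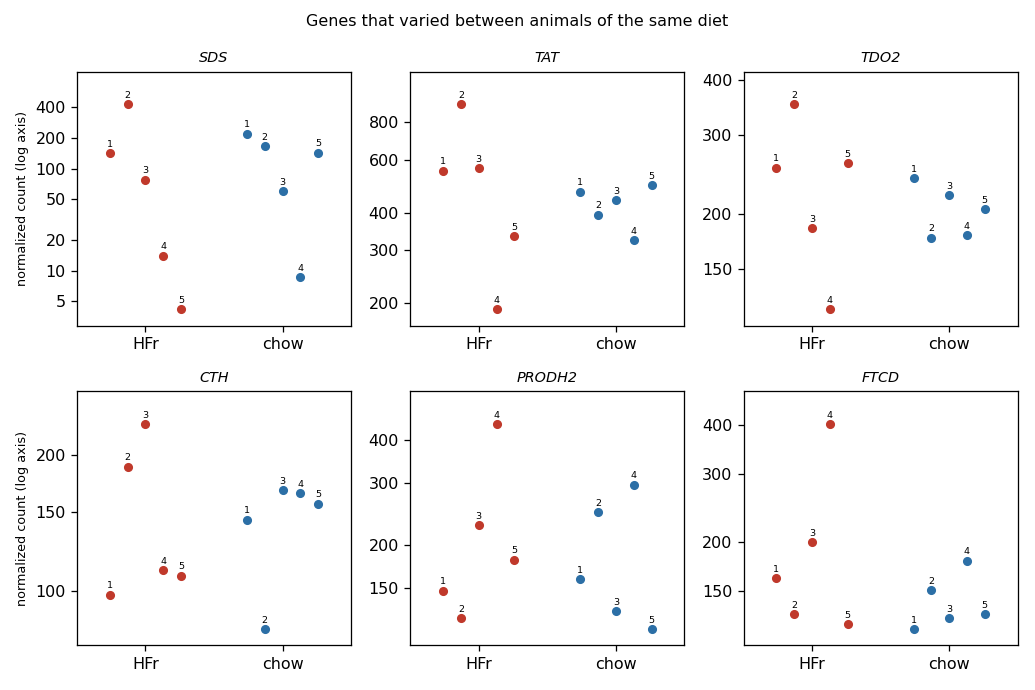
Normalized counts on log axes of 6 genes of the list, in 5 HFr (red) and 5 chow (blue) animals marked by replicate number. The 6 are not the most variable of the list. HAL and GLDC are not shown, and the SD of TDO2 within a diet (0.43) was close to the median of the 40 genes (0.42). SDS spans from 4.16 in HFr animal 5 to 427 in HFr animal 2, and HFr animal 4 is the lowest for TAT and TDO2 but the highest for PRODH2 and FTCD.

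None of the genes of the glycine cleavage system, nor SHMT1, was called between the diets. GLDC, AMT, GCSH and DLD encode the P, T, H and L proteins that together split glycine, and SHMT1 interconverts serine and glycine. Of these 5 genes, 3 were higher and 2 lower on HFr, with a median of 0.00, and none had an unadjusted edgeR p under 0.05. Whether the 5 genes shared a direction was not tested. GLDC had normalized counts of 43.0, 21.8, 86.3, 77.1 and 88.0 on HFr and 50.5, 95.9, 40.0, 38.4 and 33.1 on chow. High values occurred in 3 HFr animals and in chow animal 2, so that the means of 63.2 ± 29.5 and 51.6 ± 25.6 (SD, n = 5 each) gave a log2 fold change of 0.28 ± 0.37 (SE; edgeR p = 0.454, exact permutation p = 0.492). AMT and DLD were at 0.14 and 0.00, and GCSH and SHMT1 at -0.15 and -0.11. The DLD value rests on 5 to 19 counts per animal. GCSH had fractional estimated counts, which shows that some of its reads were shared with other transcripts, so its value is uncertain.

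In the methionine cycle, transsulfuration and cysteine oxidation, 3 of 6 tested genes were higher and 3 lower on HFr, with a median of -0.02. No gene of the group had an unadjusted edgeR p under 0.05. BHMT, which remethylates homocysteine with betaine, had normalized counts of 913, 946, 949, 897 and 1477 on HFr and 680.0, 989.9, 1779, 953 and 1132 on chow. HFr animal 5 and chow animal 3 stood above the others of their diets, and the log2 fold change was -0.09 ± 0.27 (SE; edgeR p = 0.726, exact permutation p = 0.675). BHMT also had fractional estimated counts, and its reads may be split with those of its close homolog BHMT2, whose log2 fold change was -0.04. MAT1A, the liver enzyme that makes S-adenosylmethionine, was lower at -0.25 ± 0.23 (SE), with 674 ± 158 on HFr and 799.9 ± 171 on chow (SD, n = 5 each; edgeR p = 0.301, exact permutation p = 0.270). GNMT, which uses up S-adenosylmethionine by methylating glycine, and AHCY, which splits S-adenosylhomocysteine, were at 0.15 and 0.10. CTH, the cystathionine lyase that releases cysteine, was at 0.05 ± 0.27 (SE), with 98.4, 189, 234, 112 and 108 on HFr and 144, 82.6, 167, 165 and 156 on chow. CDO1, which oxidizes cysteine, was at -0.23 (edgeR p = 0.260, exact permutation p = 0.214). HFr animal 3 was its highest value, 352 against 190 to 243 in the other HFr animals, and without that animal the log2 fold change was -0.43 with an edgeR p of 0.0370.

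The 2 tested proline and hydroxyproline enzymes and the 2 lysine enzymes were higher in fitted level on HFr, none with an unadjusted edgeR p under 0.05. Without HFr animal 4 neither proline nor hydroxyproline enzyme was higher, with a median of -0.0896. PRODH2, which oxidizes hydroxyproline, had normalized counts of 147, 123, 227, 443 and 181 on HFr and 159, 248, 129, 297 and 114 on chow. HFr animal 4 was the highest, and the means of 224 ± 128 and 189 ± 79.2 (SD, n = 5 each) gave a log2 fold change of 0.25 ± 0.36 (SE; edgeR p = 0.500, exact permutation p = 0.675). Without HFr animal 4 it was -0.16. ALDH4A1, the dehydrogenase that follows in both proline and hydroxyproline breakdown, was at 0.10. AASS, the bifunctional first enzyme of the saccharopine route of lysine, had 6.03, 10.3, 10.9, 7.55 and 10.7 on HFr and 13.3, 4.38, 11.2, 3.03 and 8.73 on chow. Its chow animals spanned the whole range of the HFr animals, and the log2 fold change was 0.13 ± 0.34 (SE; edgeR p = 0.717, exact permutation p = 0.667). AADAT, an aminotransferase of lysine and kynurenine breakdown, was at 0.27 ± 0.25 (SE; edgeR p = 0.286, exact permutation p = 0.198).

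Of 52 further genes of the same pathways, among them transaminases, folate enzymes and further steps of each chain, 51 had a row and 44 were tested. The fitted level was higher on HFr for 31 and lower for 13, with a median log2 fold change of 0.08. Without HFr animal 4 the median was 0.00, with 50% higher. None had an unadjusted p under 0.05 in edgeR. DESeq2 gave 1, lower on HFr, namely ALDH1L1, a folate dehydrogenase, which had a log2 fold change of -0.51 in edgeR (p = 0.0633, exact permutation p = 0.0952). IDO2, which acts on tryptophan at the same step as TDO2, had 90.2 ± 39.4 on HFr and 139.5 ± 63.9 on chow (SD, n = 5 each) and a log2 fold change of -0.63 (edgeR p = 0.0688, exact permutation p = 0.198). It had an unadjusted p under 0.05 in 3 alternatives, those that kept any count above 0, left out HFr animal 4 or left out chow animal 4. ALDH1L1 reached that p in DESeq2, with the replicate block, and when HFr animal 4, chow animal 1 or chow animal 3 was left out. GLYCTK was at 0.48 in edgeR (p = 0.102, exact permutation p = 0.230). It reached that p, higher on HFr, without HFr animal 3 and without the 4 libraries with the fewest nuclear counts. The equal-variance test run here gave 1 gene of this list, GSTZ1, the maleylacetoacetate isomerase of tyrosine breakdown. It was at 0.34 in edgeR (p = 0.0804, exact permutation p = 0.0635). Of the regulators of the branched-chain keto acid dehydrogenase, BCKDK, its kinase, was at 0.13 ± 0.21 (SE; edgeR p = 0.539, exact permutation p = 0.452) and PPM1K, its phosphatase, had too few counts to be tested. Markers of hepatocyte zones outside these lists overlapped between the diets. The summed pericentral markers ran from 2550 to 4950 on HFr and from 3800 to 5510 on chow (exact permutation p = 0.0714), with 4 of 4 tested genes lower and none with an unadjusted p under 0.05, and the summed periportal markers from 1650 to 3320 and from 2360 to 2940 (exact permutation p = 0.683). The pericentral sum consists mostly of CYP2E1 (means 3126 on HFr and 3916 on chow). The periportal sum consists mostly of PCK1 (means 1771 and 1922), which is also in the glucocorticoid and glucagon sum. The part of the zone markers in the values of the amino acid enzymes was not tested.

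Animals of the same diet differed in which of these enzymes they expressed at high level. HFr animal 4 was the highest of the 10 animals for 9 of the 40 genes, HPD, FAH, SDSL, AMT, IVD, MCCC1, PRODH2, UROC1 and FTCD, and the lowest for TAT, TDO2, CDO1 and PCCA. HFr animal 2 and chow animal 2 were each the highest for 7 genes, whereas HFr animal 1 was the highest for none. How often each animal was the highest over all tested transcripts was not counted, so these numbers have no background beside them. The median deviation of the 40 genes from their means over all animals stayed between -0.14 in HFr animal 1 and 0.17 in chow animal 2 on the log2 scale, so the list as a whole was shifted by no more than this in any animal. Within a pathway, the deviations of an animal went in opposite directions in some cases and in the same direction in others. HFr animal 4 was low in the first enzyme of tyrosine breakdown and highest in HPD and FAH of the same chain. The same animal was above the mean for both PRODH2 (1.23) and ALDH4A1 (0.47). How often the genes of a pathway went together was not measured.

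**Figure D4:**
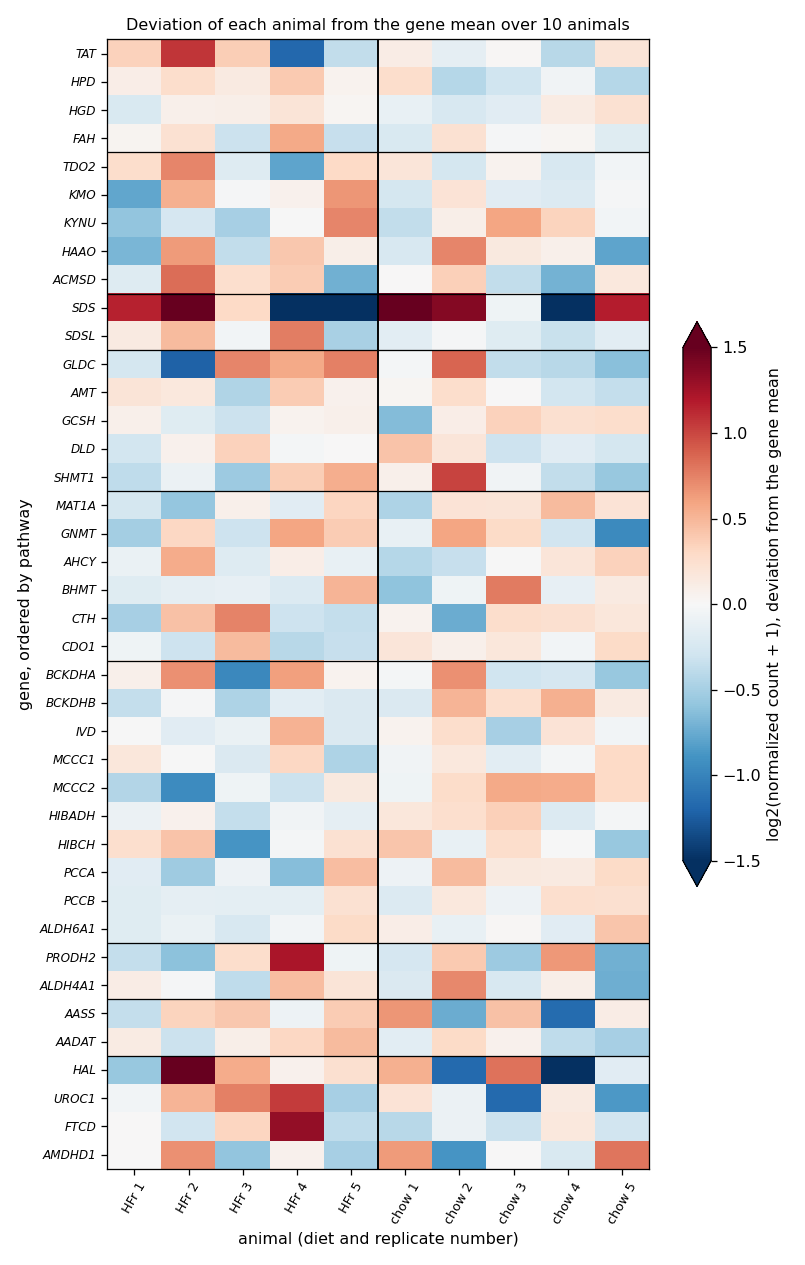
Deviation of log2(normalized count + 1) of each animal from the gene's mean over the 10 animals, for the 40 tested genes in pathway order (rows) and the animals (columns, HFr left and chow right of the line). Red is above and blue below the mean, and colors end at 1.5 in either direction. SDS has the strongest colors on both sides of the line, and HFr animal 4 is blue for TAT and TDO2 and red for PRODH2, UROC1 and FTCD.

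The genes differed in their spread between animals of a diet, and how far this limited the differences seen between diets was not tested. The median SD within a diet was 0.42 over the 40 genes and 0.36 over all tested transcripts on the log2(normalized count + 1) scale. SDS, HAL, GLDC and PRODH2 were among the 795 transcripts with the highest SD, which is 10% of the 40 genes among the top 10% of all transcripts. The lowest SDs of the list were those of HGD (0.18), PCCB (0.19) and HIBADH (0.19). Over the 10 animals, 29 of the 40 genes had a highest value of more than 2-fold the lowest, and 11 stayed under 2-fold.

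**Figure D5:**
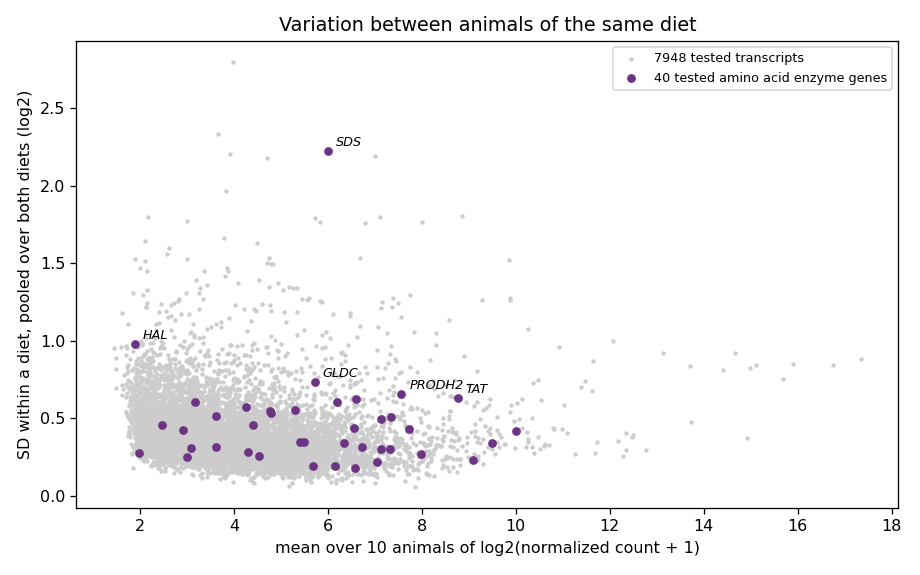
SD between animals of the same diet, pooled over both diets, against the mean level over the 10 animals, both on the log2(normalized count + 1) scale, for 7948 tested transcripts (gray) and the 40 amino acid enzyme genes (purple). SDS stands out with an SD of 2.22, and most of the other purple points lie within the gray cloud.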

How the data were processed

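Liver RNA-Seq libraries of 5 HFr and 5 chow animals were compared. The authors sequenced stranded, polyadenylated RNA, aligned reads with STAR 2.5.3a to ChlSab1.1, and deposited estimated counts per Ensembl transcript, which Partek Flow made by expectation-maximization and which were not normalized. The deposited normalized signal values, scaled by the authors with TMM after removal of transcripts without reads, were used only for an equal-variance test. The study used the same type of test, but this one was run here, and its counts are not those the study reported. Whether counting used strand is not given in the sources used here. Coordinates are counted from 1, with the listed stop excluded.

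Counts were rounded, filtered with filterByExpr (minimum count 10, minimum total 15) and tested with edgeR 4.0.16 in R 4.3.3 (TMM, quasi-likelihood, diet only, Benjamini-Hochberg over 7948 transcripts); the procedure was tested on simulated data. SE is the log2 fold change divided by the square root of F. Exact permutation tests were two-sided over the 252 assignments of animals, with 0.00794 the smallest p possible. Alternatives were DESeq2 1.42.0, limma 3.58.1 (pseudocount 1), other scalings and filters, mitochondrial percent as a covariate, sums by gene, a replicate block and each animal left out. Genes and lists were chosen with earlier results of these data known. A single gene of the list of further pathway genes is not reported here and was left out of its counts. Described in full were genes with an unadjusted p under 0.05, the 3 largest fold changes in each direction, and the gene with the highest mean count of each group.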

Additional observations from a re-analysis of the deposited data

Results flagged for a closer look

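In 7 of the 82 groups of 5 animals examined, a single animal stood apart by more than Dixon's critical value. That value is passed by about 1 in 20 groups of normally distributed, independent values. Here the counts were not logged and the groups share the same animals, so that rate is no measure for the 7. Chow animal 2 accounted for 3 of the 7 groups. It had 95.9 normalized counts of GLDC against 33.1 to 50.5 in the other chow animals, 54.3 of SHMT1 against 17.5 to 27.9, and 82.6 of CTH against 144 to 167. HFr animal 4 was high for IVD, at 228 against 137 to 158, and for FTCD, at 401 against 123 to 201. HFr animal 5 was high for BHMT, at 1477 against 897 to 949, and for PCCB, at 59.0 against 44.1 to 45.8. None of these genes had an unadjusted p under 0.05 between the diets in edgeR.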

How the results depend on the processing

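MCCC2 had an unadjusted p under 0.05 in 20 of 22 alternatives, BCKDHB in 14 and UROC1 in 14, and no gene of the list passed the adjusted threshold in any of them. The number of the 40 genes with an unadjusted p under 0.05 was 0 with library size only (no TMM) and 0 without the 4 libraries with the fewest nuclear counts (chosen after seeing the data), and ranged from 1 (without chow animal 3) to 5 (without HFr animal 5, with FTCD, PCCA and SDSL added) when an animal was left out. Without HFr animal 2 the median log2 fold change of the genes was -0.03, with 47.5% of them higher. Over all transcripts the count was 597 of 16105 (3.71%) with the study's equal-variance test, 123 of 7948 (1.55%) with library size only, and 756 of 16066 (4.71%) when any count above 0 was kept, against 341 of 7948 (4.29%). Deviations from the diet mean had correlations from -0.287 to 0.0986 between same-numbered animals. Expression values alone cannot show whether these animals were matched. A fit with the replicate block gave 3 genes, again MCCC2, BCKDHB and UROC1, and 271 transcripts, with a median of 0.06 for the genes. Of 875 alternative fold changes of single genes, 798 kept direction and side of the threshold and 52 reversed, and 20 genes never reversed. The reversed log2 fold changes were, with library size only, -0.00211 for HAAO, -0.0494 for DLD and -0.0215 for IVD; with DESeq2, -0.00208 for DLD; with limma, -0.61 for SDS; with the mitochondrial percent, -0.0155 for SDS; with the replicate block, -0.32 for SDS and -0.000228 for CTH; and without the 4 libraries, 0.0652 for KYNU, -0.0008 for SDS, -0.14 for DLD, 0.0340 for PCCB, 0.0545 for ALDH6A1, -0.0104 for AASS and 0.12 for AMDHD1. Leaving out each animal gave ranges that crossed 0, from -0.0515 to 0.47 for TAT, -0.0605 to 0.19 for FAH, -0.15 to 0.26 for HAAO, -1.03 to 0.49 for SDS, -0.12 to 0.19 for DLD, -0.27 to 0.25 for SHMT1, -0.0105 to 0.36 for GNMT, -0.0457 to 0.21 for AHCY, -0.26 to 0.14 for BHMT, -0.18 to 0.16 for CTH, -0.14 to 0.0849 for IVD, -0.17 to 0.0361 for MCCC1, -0.10 to 0.19 for HIBCH, -0.16 to 0.46 for PRODH2, -0.0421 to 0.36 for ALDH4A1, -0.0507 to 0.37 for AASS and -0.41 to 0.0233 for AMDHD1. The cause of these changes was not tested. The fewest counts in an animal were under 10 for DBT, HAL, HIBCH, DLD, AASS and KMO.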
